A study of Mus musculus with 59 samples.

Results

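The 10 core circadian clock genes were read in whole prefrontal cortex of 59 mice. They are Per1, Per2, Per3, Cry1, Cry2, Arntl (whose protein is also called BMAL1), Clock, Nr1d1, Nr1d2 and Dbp, and they were the rows of the gene table whose Ensembl identifiers carry those mouse symbols. All 10 were found among 18088 genes, and all 10 passed the filter on low values that left 17891 genes for testing. The mice were C57BL/6J at postnatal day 25. They were labelled heterozygous for Naa15 (HT) or wild type (WT), and had received lithium, fluoxetine or vehicle through their mother's milk for 3 weeks, from postnatal day 3 to 24. Naa15 encodes the auxiliary subunit of an enzyme that acetylates protein N-termini. Males and females formed separate groups, which gives 12 groups of 5 libraries, except HT vehicle males with 4. The labels give neither litters nor the hour of dissection, so a group difference in these genes and a difference in the hour of dissection cannot be told apart, and the p-values measure the spread between these libraries.

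The mammalian clock is a loop of transcription and repression that runs in most cells, cortical neurons and glia included. The CLOCK:BMAL1 dimer binds E-boxes and drives the Per, Cry and Nr1d genes and Dbp. PER and CRY proteins return to the nucleus and block that dimer, and the REV-ERB receptors made from Nr1d1 and Nr1d2 silence Arntl through ROR elements. DBP is a PAR bZIP activator of output genes at D-boxes. Per1 and Per2 are also induced by neuronal activity through CRE sites, and Per1 by glucocorticoids. Arntl and Clock are called the activator limb below, and the other 8 genes the repressor and output limb.

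Promoter windows from RefSeq (GRCm38.p6), 250 bases before to 50 bases after an annotated start, were found for 9 of the 10 genes, all but Per2. The 5 motifs below were searched on both strands, and none of the matches overlapped another. The canonical E-box CACGTG occurred in Per1 and Cry1, and in 7.15% of all 32851 windows. The E-box variant CACGTT occurred in Cry1, Cry2 and Nr1d1 (4.68% of windows). The D-box TTANGTAA occurred in Per3 (2.32%), the ROR element core TAGGTCA in Arntl (2.61%), and the full CRE TGACGTCA in no member (1.79%). Windows of the genes that hold an E-box or the ROR core are shown, since these are the sites of the loop, with the matches in capitals; CACGTT reads AACGTG where it lies on the other strand. A match describes only these letters.
Per1, chr11:69098699-69098998, plus strand: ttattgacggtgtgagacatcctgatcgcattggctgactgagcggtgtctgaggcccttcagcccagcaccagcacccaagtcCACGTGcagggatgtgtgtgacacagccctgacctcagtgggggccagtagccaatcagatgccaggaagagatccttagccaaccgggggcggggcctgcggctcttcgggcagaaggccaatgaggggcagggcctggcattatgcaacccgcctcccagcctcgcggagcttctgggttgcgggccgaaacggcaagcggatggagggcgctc
Cry1, chr10:85185005-85185304, minus strand: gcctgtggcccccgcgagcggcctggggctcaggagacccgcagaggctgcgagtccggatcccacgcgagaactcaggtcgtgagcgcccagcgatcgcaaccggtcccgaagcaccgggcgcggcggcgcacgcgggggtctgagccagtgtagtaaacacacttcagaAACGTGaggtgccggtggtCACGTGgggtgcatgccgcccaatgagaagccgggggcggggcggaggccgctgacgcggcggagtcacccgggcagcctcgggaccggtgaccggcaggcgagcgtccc
Cry2, chr2:92434020-92434319, minus strand: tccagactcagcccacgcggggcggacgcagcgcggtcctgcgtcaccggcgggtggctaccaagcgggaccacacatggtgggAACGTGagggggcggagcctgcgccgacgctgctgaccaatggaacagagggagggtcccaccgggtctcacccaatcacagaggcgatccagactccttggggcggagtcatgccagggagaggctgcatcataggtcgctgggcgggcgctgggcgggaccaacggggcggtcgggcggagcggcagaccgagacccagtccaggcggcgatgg
Nr1d1, chr11:98775328-98775627, minus strand: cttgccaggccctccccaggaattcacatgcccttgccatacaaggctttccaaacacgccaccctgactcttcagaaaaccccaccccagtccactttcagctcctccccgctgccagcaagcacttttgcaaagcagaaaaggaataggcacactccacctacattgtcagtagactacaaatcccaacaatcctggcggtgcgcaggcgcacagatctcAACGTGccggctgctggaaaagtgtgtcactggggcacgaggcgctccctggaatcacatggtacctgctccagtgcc
Arntl, chr7:113207261-113207560, plus strand: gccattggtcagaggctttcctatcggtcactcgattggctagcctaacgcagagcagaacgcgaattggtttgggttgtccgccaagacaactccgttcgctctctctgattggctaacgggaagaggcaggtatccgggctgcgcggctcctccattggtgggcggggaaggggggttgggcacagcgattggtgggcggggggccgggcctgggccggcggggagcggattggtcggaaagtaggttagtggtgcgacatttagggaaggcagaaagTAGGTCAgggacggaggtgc

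Positions are those of GENCODE M21 on GRCm38. In the repressor limb, Per1 (ENSMUSG00000020893) lies at chr11:69095217-69109960, Per2 (ENSMUSG00000055866) at chr1:91415982-91459324 and Per3 (ENSMUSG00000028957) at chr4:151003652-151044665. Cry1 (ENSMUSG00000020038) lies at chr10:85131700-85185064 and Cry2 (ENSMUSG00000068742) at chr2:92403646-92434043. Nr1d1 (ENSMUSG00000020889) lies at chr11:98767932-98775333 and Nr1d2 (ENSMUSG00000021775) at chr14:18204054-18239127. Dbp (ENSMUSG00000059824) lies at chr7:45705088-45710203. In the activator limb, Arntl (ENSMUSG00000055116) lies at chr7:113207465-113314126 and Clock (ENSMUSG00000029238) at chr5:76209868-76304792.

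In the 10 WT vehicle libraries the levels, as normalised counts per kilobase of exon, differed widely between genes. Nr1d1 was the highest at 1088 ± 81 (SD, n = 10), followed by Cry2 at 697 ± 44, Dbp at 660 ± 98 and Per1 at 644 ± 57, whose spreads overlap. Nr1d2 stood at 532 ± 16. Below these came Per2 at 234 ± 45 and Clock at 217 ± 16, which do not differ beyond their spread. Per3 stood at 142 ± 9.2, with Arntl at 116 ± 9.7 and Cry1 at 112 ± 6.3, again within each other's spread.

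Libraries held 24.99 to 32.87 M reads (median 29.1 M), recovered from the deposited values, so the 10 genes rested on at least 297 reads each in every library. Naa15 itself did not separate the genotypes: it averaged 1592 normalised counts in HT vehicle mice and 1634 in WT vehicle mice (log2 difference -0.03 ± 0.041 (SE), adjusted p = 0.895 by limma), so its level is no check of the genotype labels. Under fluoxetine it was higher in HT than in WT (1723 and 1579, log2 difference 0.12 ± 0.040, adjusted p = 0.015). That difference was 0.18 in females (adjusted p = 0.0087) and 0.06 in males (adjusted p = 0.63), and with the trend described next removed it was 0.05 (adjusted p = 0.336). The 20 lithium libraries and the 5 libraries of HT fluoxetine females stood apart from the other 34 in their whole profile. On the main axis of variation, which holds 14.43% of the variance, they lay from -31.6 to -14.9, and the others from -2.74 to 27.6. Their mitochondrial share was 6.76 to 10.3% (median 7.98), against 4.96 to 7.83% (median 5.84) in the others. Genes of high GC content were lower in them: the slope of a library's log2 deviation on GC content, per 10 points, ran from -0.258 to -0.0554 in these 25 and from -0.0649 to 0.191 in the others. Values without the HT fluoxetine females, and after removal of the trend on GC content and gene length, are therefore given beside the results that they change.

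**Figure D1:**
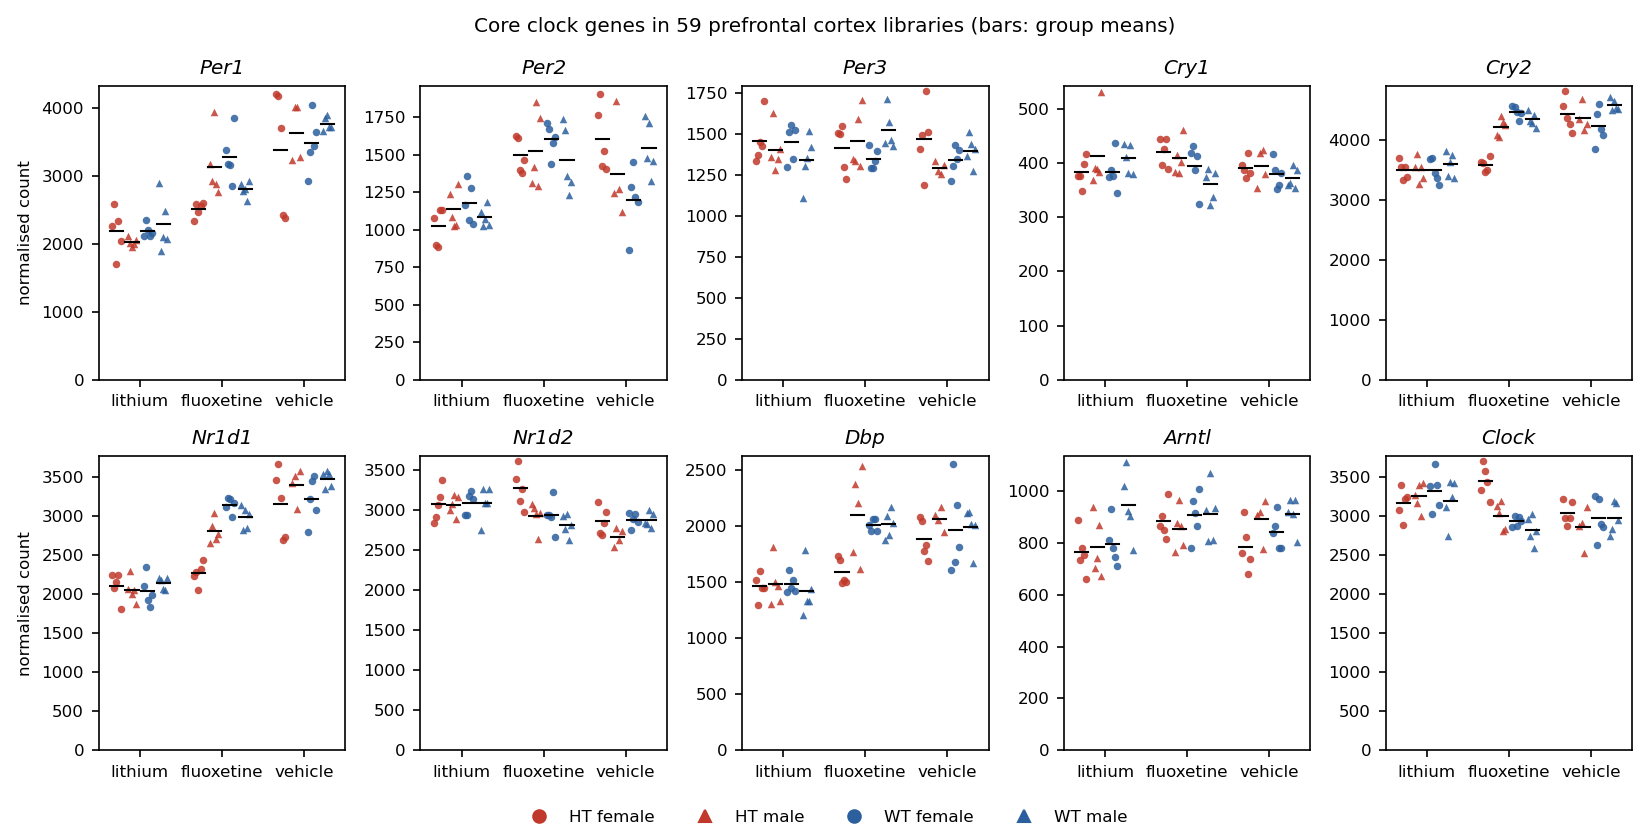
Normalised counts of the 10 core clock genes (vertical axes from 0) in each of 59 libraries, by treatment, with genotype as colour and sex as symbol, and bars for the group means. Nr1d1 and Cry2 show no overlap between lithium and vehicle libraries, and for Nr1d1 the 5 HT fluoxetine females lie between 2057 and 2445, against 1814 to 2352 in lithium libraries.

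Lithium was the treatment with the most called changes among the clock genes. The 5 lowered genes were in the repressor and output limb, which holds 8 of the 10 genes, and so was 1 of the 2 higher genes. Of the 10 genes, 5 were lower and 2 higher in 20 lithium libraries than in 19 vehicle libraries (limma, adjusted p below 0.05 over all genes). That count needs its background: 63.1% of all tested genes were called in this comparison, 30.4% lower and 32.7% higher, so 7 of 10 is near the background share. The repressor and output limb had a median log2 difference of -0.34 over its 8 genes, and all tested genes 0.02. The median of that limb after removal of the GC and length trend was -0.11, with 47.5% of all genes called. The activator limb had a median of 0.03 over 2 genes, 1 above 0 and 1 below. In whole cortex, fewer cells that express a gene and less RNA per cell cannot be told apart.

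Nr1d1, which encodes REV-ERB alpha, was called with the smallest p. It ranged from 1814 to 2352 normalised counts in lithium libraries (median 2076), against 2696 to 3672 in vehicle libraries (median 3421). The groups did not overlap. The log2 difference was -0.66 ± 0.034 (SE, limma adjusted p = 4.2e-23), lower in 20 of 20 lithium libraries. Here and below, a library counts as lower when it lies under the mean of its matched comparison group. That group has the same sex, and the same genotype or treatment. Per1, the light- and activity-induced period gene, ranged from 1700 to 2891 in lithium libraries (median 2117) and from 2379 to 4199 in vehicle libraries (median 3703). Its log2 difference was -0.71 ± 0.058 (adjusted p = 1.5e-15), with some overlap between the highest lithium and lowest vehicle libraries. Cry2, a repressor of CLOCK:BMAL1, ranged from 3244 to 3817 in lithium libraries (median 3547) and from 3854 to 4818 in vehicle libraries (median 4434). Its log2 difference was -0.32 ± 0.022 (adjusted p = 1.6e-18), and the groups again did not overlap. Nr1d1 and Cry2 were thus 2 of the 10 genes without overlap, where 6.60% of all tested genes had none.

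Dbp, the output activator, ranged from 1206 to 1813 in lithium libraries (median 1445) and from 1606 to 2549 in vehicle libraries (median 2015). Its log2 difference was -0.43 ± 0.051 (adjusted p = 1.5e-10). By the count defined above it was lower in 20 of 20 lithium libraries, though its groups overlapped. Per2 ranged from 882 to 1357 in lithium libraries (median 1081) and from 864 to 1904 in vehicle libraries (median 1426). Its log2 difference was -0.35 ± 0.060 (adjusted p = 1.0e-06), lower in 18 of 20 lithium libraries. Its groups overlapped widely, and in WT females Per2 averaged 1180 ± 137 under lithium and 1200 ± 214 under vehicle (SD, n = 5 each; log2 difference -0.01 ± 0.12, adjusted p = 0.951). In WT males it averaged 1085 ± 68 under lithium and 1546 ± 183 under vehicle (log2 difference -0.50 ± 0.12, adjusted p = 4.0e-04). Whether the sexes differ in this was not tested. The vehicle mean of WT females was the lowest of the vehicle groups, with HT females at 1605 and HT males at 1373. Their lithium mean was the highest of the lithium groups, with HT females at 1024 and HT males at 1135.

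The other 5 genes had differences nearer to 0, of which 2 were called. Nr1d2, the paralogue of Nr1d1, averaged 3072 ± 161 under lithium and 2827 ± 141 under vehicle (SD, n = 20 and 19; log2 difference 0.12 ± 0.026, adjusted p = 3.6e-05). Clock averaged 3237 ± 219 under lithium and 2973 ± 208 under vehicle (log2 difference 0.13 ± 0.030, adjusted p = 3.1e-04). The remaining genes passed no threshold. Arntl, the partner of Clock, had a log2 difference of -0.07 (95% interval -0.16 to 0.03). Per3 had 0.04 (-0.05 to 0.12) and Cry1 0.04 (-0.03 to 0.12).

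**Figure D2:**
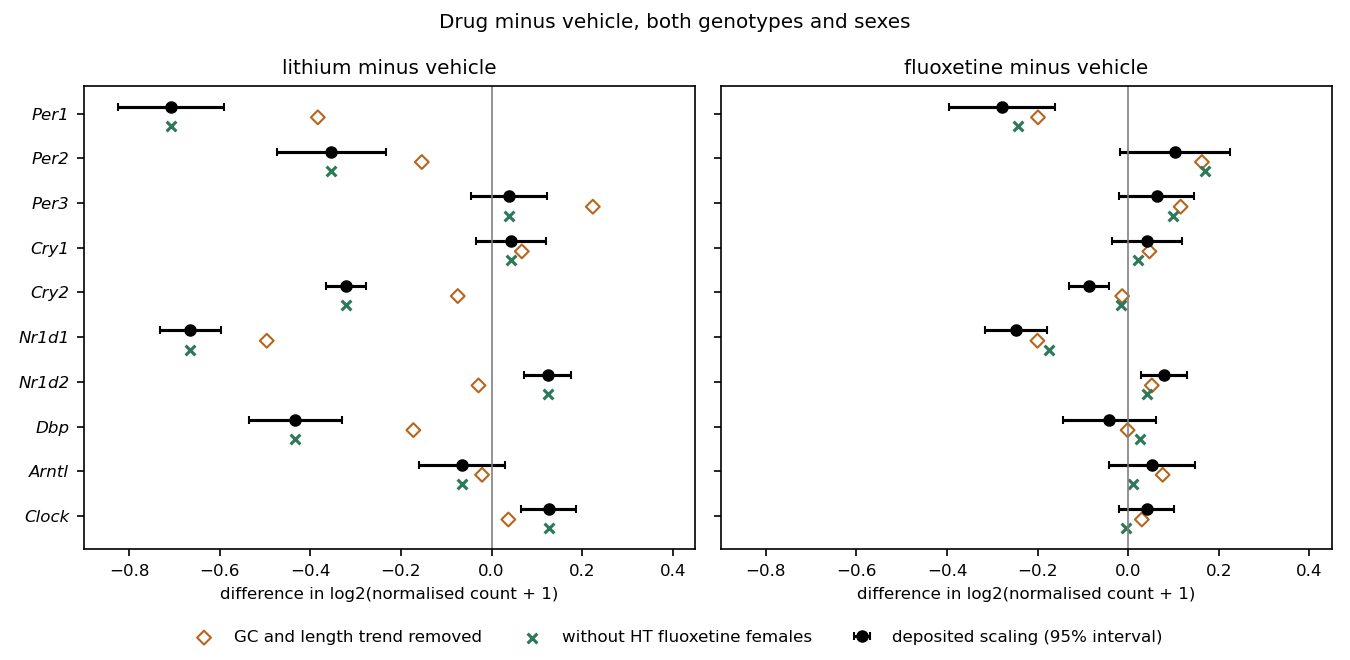
Log2 differences of each core clock gene, lithium minus vehicle and fluoxetine minus vehicle over both genotypes and sexes. Black points with bars are the values of the deposited scaling with 95% intervals, diamonds those after removal of the GC and length trend, and crosses those without the 5 HT fluoxetine females. For lithium the diamonds of Per1, Per2, Cry2, Nr1d1 and Dbp lie nearer to 0 than the points, those of Nr1d2 and Clock fall to near 0, and that of Per3 lies farther from 0, at 0.22.

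The GC content of the members runs along the trend that sets these libraries apart. Per1 (59.4% GC), Nr1d1 (56.8%), Cry2 (55.6%), Dbp (61.6%) and Per2 (54.3%) lie above the upper quartile of tested genes (54.2%), and Clock (40.9%) and Nr1d2 (41.8%) below the lower quartile (44.6%). Over all genes tested, the median lithium difference was 0.24 for the 1298 genes below 40% GC and -0.29 for the 774 at or above 60%. When the trend on GC content and length was removed from each library, calls remained for Nr1d1 (-0.50), Per1 (-0.38), Dbp (-0.17), Per2 (-0.15) and Cry2 (-0.07). Clock (0.04, adjusted p = 0.15) and Nr1d2 (-0.03, adjusted p = 0.24) no longer passed. Per3 then passed at 0.22 (adjusted p = 2.3e-05). Of the genes whose level the table gives, Nr1d1 shares 263 exon bases with Thra on the opposite strand, and Dbp shares 539 with Sphk2. The library kit keeps strand, per the labels' protocol, but how strand was counted is not given in the sources used here. Sphk2 averaged 652 ± 42 under lithium and 834 ± 41 under vehicle (SD, n = 20 and 19), and Thra averaged 21748 ± 2216 under lithium and 22853 ± 2203 under vehicle. Their part in the values of Nr1d1 and Dbp was not tested.

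**Figure D3:**
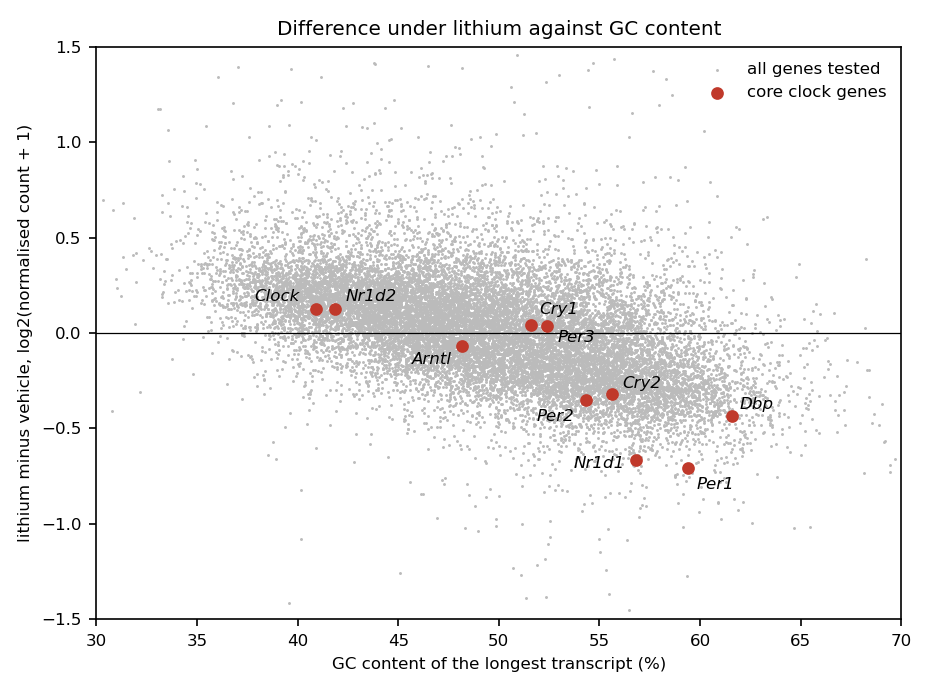
Lithium minus vehicle log2 difference against GC content of the longest transcript (percent) for 17880 tested genes, with the 10 core clock genes in red. Genes fall along a trend from high differences at low GC content to low differences at high GC content, and Nr1d1 and Per1 lie below it at about 57 and 59% GC. The axes leave out 63 genes.

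The 7 calls recurred in each genotype. In WT (52.9% of tested genes called, 26.3% lower and 26.6% higher) the log2 differences under lithium were -0.70 for Per1, -0.68 for Nr1d1, -0.44 for Dbp, -0.31 for Cry2, -0.26 for Per2, 0.13 for Clock and 0.10 for Nr1d2. In HT (50.6% called, 24.9% lower and 25.7% higher) they were -0.72 for Per1, -0.65 for Nr1d1, -0.43 for Dbp, -0.33 for Cry2, -0.45 for Per2, 0.12 for Clock and 0.15 for Nr1d2. After removal of the GC and length trend 5 genes were called in each genotype, where 36.5% of all genes were called in WT and 29.8% in HT. In WT these were Nr1d1 (-0.52), Per1 (-0.38), Dbp (-0.19), Clock (0.07) and Per3 (0.22), while Per2 (-0.06, adjusted p = 0.617), Cry2 (-0.07, adjusted p = 0.0537) and Nr1d2 (-0.04, adjusted p = 0.303) were not. In HT they were Nr1d1 (-0.48), Per1 (-0.39), Per2 (-0.25), Cry2 (-0.08) and Per3 (0.23), while Dbp (-0.16, adjusted p = 0.0741), Clock (0.00011, adjusted p = 0.998) and Nr1d2 (-0.02, adjusted p = 0.657) were not. The genotype-by-lithium interaction called 0 of the 10 (limma, 0 at an unadjusted p below 0.05, 0 by edgeR and by DESeq2), where 0% of all tested genes were called by limma. Its intervals span -0.43 to 0.05 for Per2 and -0.11 to 0.16 for Nr1d1. Nr1d1 and Cry2 fell in all 4 strata of genotype and sex, without overlap in any. Counting all members without overlap gives 4 in HT females (24.2% of all tested genes), 5 in HT males (26.6%), 4 in WT females (20.8%) and 4 in WT males (28.2%). Per1 fell in all 4 strata too, and its groups overlapped in HT females.

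**Figure D4:**
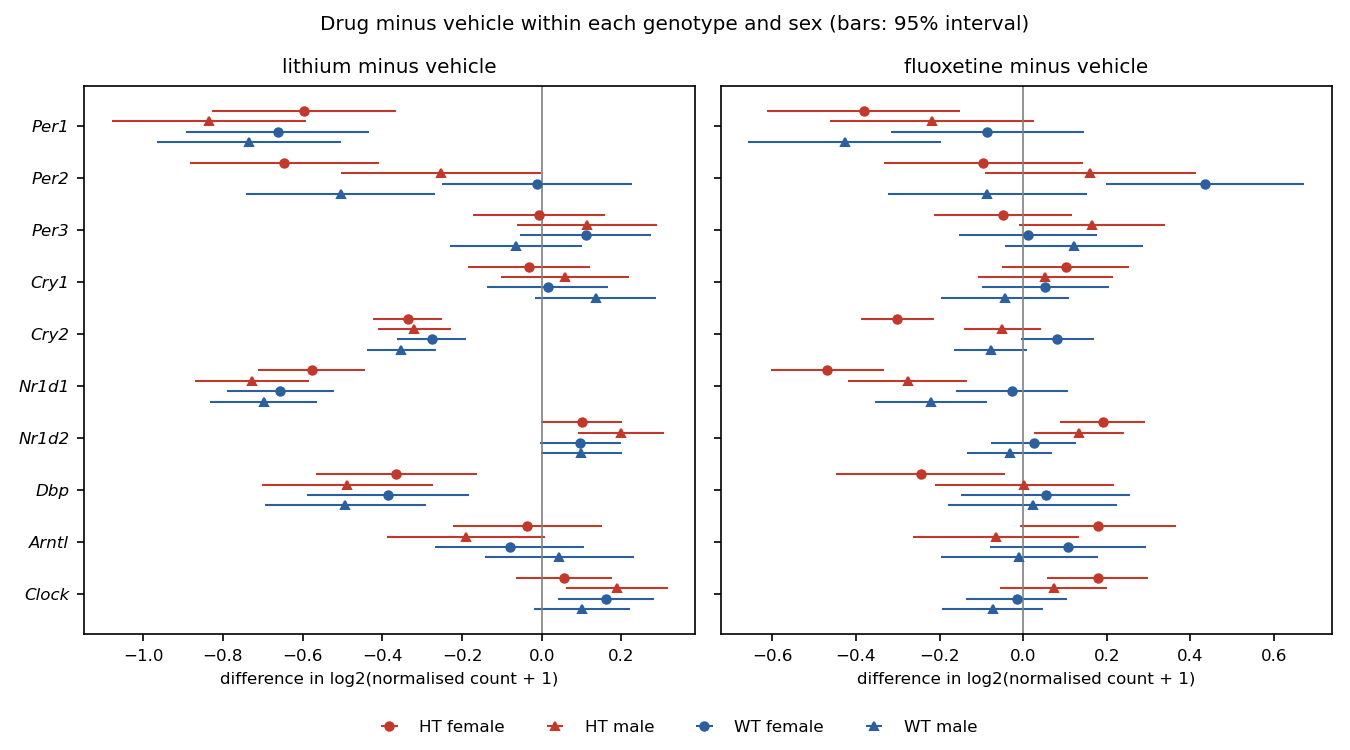
Log2 differences to vehicle with 95% intervals in each genotype and sex, for lithium on the left and fluoxetine on the right. Nr1d1 and Cry2 lie below 0 in all 4 lithium strata, while under fluoxetine Cry2 lies at -0.30 in HT females and between -0.08 and 0.08 in the other strata.

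Fewer of the genes were called under fluoxetine, and 3 of its 4 calls over both genotypes were lost without the 5 HT females. The share of all tested genes called also fell without them, from 20.0% to 2.08%. Over both genotypes 4 of 10 were called, 3 lower and 1 higher, where 20.0% of all tested genes were called, 10.3% lower and 9.72% higher. Per1 averaged 2933 ± 418 under fluoxetine and 3563 ± 529 under vehicle (SD, n = 20 and 19; log2 difference -0.28 ± 0.058, adjusted p = 4.2e-04). Nr1d1 averaged 2804 ± 361 under fluoxetine and 3310 ± 299 under vehicle (log2 difference -0.25 ± 0.034, adjusted p = 7.1e-07). Cry2 differed by -0.09 ± 0.022 and Nr1d2 by 0.08 ± 0.026 on the log2 scale. Without the HT fluoxetine females, where 2.08% of all tested genes were called, Nr1d1 alone stayed called, at -0.17 (limma adjusted p = 0.0084). Per1 then stood at -0.24 (adjusted p = 0.051), Cry2 at -0.02 and Nr1d2 at 0.04. With the GC and length trend removed, where 10.1% of all genes were called, Nr1d1 (-0.20) and Per1 (-0.20) were called, and Cry2 (-0.01) and Nr1d2 (0.05) were not.

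In WT mice fluoxetine called 0 of the 10 (limma), where 1.02% of tested genes were called, with 3 at an unadjusted p below 0.05 and 0 by edgeR and by DESeq2. Per1 had the lowest adjusted p there, at 0.118 for a log2 difference of -0.26 ± 0.081 (9 of 10 libraries lower). When only those groups were fitted, Per1 was called at -0.26 (adjusted p = 0.014). Removal of the GC and length trend gave 1 call in WT, where 213 of 17880 genes were called. That gene was again Per1, at -0.29 (limma adjusted p = 0.040). The call was lost when the HT fluoxetine females were also left out of the fit. In WT males the Per1 values were 2876, 2779, 2814, 2626 and 2929 under fluoxetine and 3660, 3847, 3901, 3721 and 3718 under vehicle. Per1, Cry2 and Nr1d1 did not overlap there, 3 of 10 where 1.95% of all tested genes had no overlap. None of the 10 passed after adjustment in WT males (0.129% of tested genes called), with Per1 at -0.43 ± 0.11 (adjusted p = 0.125).

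In HT mice fluoxetine called 5 of the 10, 3 lower and 2 higher, where 31.2% of all tested genes were called, 16.3% lower and 14.8% higher. In HT females alone 6 were called (38.3% of tested genes). Nr1d1 was at 2236, 2282, 2057, 2328 and 2445 in the HT fluoxetine females and at 3458, 3672, 3238, 2696 and 2736 in the HT vehicle females. The groups did not overlap (log2 difference -0.47 ± 0.067, adjusted p = 1.1e-07). Cry2 was at 3631, 3610, 3469, 3498 and 3732 in the same fluoxetine females, against 4570, 4818, 4372, 4260 and 4111 in the vehicle females (log2 difference -0.30 ± 0.043, adjusted p = 1.1e-07). These 2 genes had no overlap, where 26.7% of all tested genes had none. Clock was higher by 0.18 ± 0.060 (adjusted p = 0.015) in HT females. The summed endothelial markers were 3193 to 3414 in these fluoxetine females and 3460 to 5297 in all vehicle libraries, and the microglial markers 5062 to 5372 in the fluoxetine females and 5392 to 7810 in vehicle libraries, both without overlap. The layer markers of cortex summed to 8059 to 8630 in the fluoxetine females and 8518 to 10959 in vehicle libraries. Summed neuronal, astrocyte and oligodendrocyte markers of these females lay within the vehicle range. Their part was not tested. Over both sexes of HT the calls were Per1, Cry2 and Nr1d1 lower, and Nr1d2 and Clock higher. In HT males, with 0.162% of tested genes called, Nr1d1 averaged 2811 ± 152 under fluoxetine (n = 5) and 3406 ± 215 under vehicle (n = 4), a log2 difference of -0.28 that missed the threshold (adjusted p = 0.0988). Its libraries did not overlap, as for 3.21% of all tested genes. Without the HT fluoxetine females, which leaves HT males alone, 0 of 10 were called in HT (0.145% of tested genes). Of the 5 differences that were called with them, Nr1d1 then stood at -0.28, Per1 at -0.22, Nr1d2 at 0.13, Clock at 0.07 and Cry2 at -0.05, against -0.37, -0.30, 0.16, 0.13 and -0.18 with them. Nr1d1 alone was called in HT (-0.25) once the GC and length trend was removed, where 11.6% of all genes were called.

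Lithium and fluoxetine were also set against each other, over both genotypes, where 53.9% of tested genes were called, 26.2% lower and 27.7% higher. Of the 10 genes, 6 were lower under lithium and 1 higher, and none was free of overlap (0.0335% of all tested genes were). Per2 averaged 1106 ± 123 under lithium and 1520 ± 180 under fluoxetine (SD, n = 20 each; log2 difference -0.46 ± 0.059, adjusted p = 3.4e-09). Per1 differed by -0.43 ± 0.057, Nr1d1 by -0.42 ± 0.033, Dbp by -0.39 ± 0.050 and Cry2 by -0.23 ± 0.022. Arntl differed by -0.12 ± 0.047 (adjusted p = 0.027), and Clock by 0.09 ± 0.030 (adjusted p = 0.014). Clock stood at 0.01 (adjusted p = 0.827) and Arntl at -0.10 (adjusted p = 0.131) after removal of the GC and length trend, and neither was called. Nr1d2 (-0.08) and Per3 (0.11) then were, and the other 5 calls remained, where 35.4% of all genes were called. Without the HT fluoxetine females Arntl was not called (-0.09, adjusted p = 0.174) and Nr1d2 was (0.09, adjusted p = 0.0057), with Clock at 0.15. The call of Arntl was also lost without HT lithium male replicate 5 (adjusted p = 0.0503), WT fluoxetine male replicate 3 (0.0526) or WT lithium male replicate 5 (0.0551). Per2 had a log2 difference of 0.10 (95% interval -0.02 to 0.22) between fluoxetine and vehicle, and the lithium and fluoxetine comparisons with vehicle share the vehicle libraries.

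No clock gene passed between the genotypes in vehicle or lithium mice. In vehicle mice 0 of 10 were called between HT and WT (limma, 0 at an unadjusted p below 0.05, 0 by edgeR and by DESeq2), against 0.106% of tested genes. The differences ran from -0.07 for Per1 to 0.12 for Per2, whose interval spans -0.05 to 0.29. The sexes went opposite ways for Per2. In vehicle females it averaged 1605 in HT and 1200 in WT (log2 difference 0.43, an unadjusted p below 0.05 by limma but not called). In vehicle males it averaged 1373 in HT and 1546 in WT. In vehicle males Nr1d2 was lower in HT without overlap, as 2.99% of all tested genes had none. In lithium mice 0 of 10 were called, against 0.386% (0 by edgeR and by DESeq2, 1 at an unadjusted p below 0.05). That gene was Arntl, which averaged 774 in HT and 870 in WT (log2 difference -0.17 ± 0.066, adjusted p = 0.237, lower in 9 of 10 HT libraries).

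Under fluoxetine, where 33.3% of tested genes were called, 17.8% lower and 15.6% higher, 5 of 10 differed between HT and WT. Nr1d1 (-0.28) and Cry2 (-0.18) were lower in HT, and Clock (0.16), Cry1 (0.14) and Nr1d2 (0.11) higher. Cry1 was not called by edgeR (adjusted p = 0.0534). In females alone (39.5% called), HT and WT fluoxetine libraries did not overlap for Per1, Cry2, Nr1d1, Dbp and Clock, 5 of 10 where 31.1% of all tested genes had no overlap. Per1 was at 2344, 2582, 2478, 2559 and 2603 in the HT females, against 3376, 3170, 3155, 2846 and 3854 in the WT females. In males 0 of 10 were called (1.60% of tested genes, 1 member at an unadjusted p below 0.05). Without the 5 HT fluoxetine females, which leaves the males, 0 of the 10 were called (1.40% of tested genes). Cry1 then stood at 0.18 (adjusted p = 0.251), Nr1d1 at -0.09, Clock at 0.09, Nr1d2 at 0.06 and Cry2 at -0.04. With the GC and length trend removed, Nr1d1 (-0.16) and Cry1 (0.15) were called, where 2320 of 17880 genes were called. Over all treatments Cry2 (-0.07) and Nr1d1 (-0.11) were called, both lower in HT (14.7% of tested genes called, 9.59% lower), again 0 without those females (2.96% of tested genes). The genotype-by-fluoxetine interaction called 4 of 10 (20.6% of tested genes, 11.7% below 0 and 8.97% above), with Cry2 and Nr1d1 below 0 and Nr1d2 and Clock above it. Without those females 0 were called, where 0% of all tested genes were. The interaction then rested on males alone. Nr1d2 at 0.17 and Clock at 0.15 were about as large as with those females, and Nr1d1 stood at -0.06 and Cry2 at 0.03. With the GC and length trend also removed, Nr1d2 stood at 0.12, Clock at 0.06, Nr1d1 at 0.03 and Cry2 at 0.09, none called. After removal of that trend from all 59 libraries 0 were called too, where 1.86% of all genes were (limma, 0.03 for Nr1d2, 0.04 for Clock, -0.09 for Nr1d1 and -0.002 for Cry2).

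Sex was called for 2 of the 10 genes over all groups, Cry2 (-0.05 ± 0.018) and Nr1d1 (-0.08 ± 0.028), lower in females than in males, where 8.76% of tested genes were called, 5.20% lower. The adjusted p values were 0.042 and 0.043. Without the HT fluoxetine females 0 of the 10 were called, where 0.151% of tested genes were (-0.02 for Cry2 and -0.04 for Nr1d1). The sex-by-fluoxetine interaction called Cry2 in HT (-0.25 ± 0.063, adjusted p = 0.0039, 15.2% of tested genes called). That term includes the HT fluoxetine females and has no value without them. In WT the sex-by-fluoxetine interaction called 0 of the 10 by limma (0% of tested genes), with 4 at an unadjusted p below 0.05.

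Further clock genes were read as lists, under lithium against a background of 63.1% of all tested genes called, 30.4% lower and 32.7% higher. Under lithium all 6 further repressors were lower (median -0.32, all tested genes 0.02). Among them Bhlhe40, a repressor at E-boxes, averaged 2127 ± 415 under lithium and 3453 ± 788 under vehicle (SD, n = 20 and 19; log2 difference -0.68 ± 0.081, adjusted p = 1.9e-10). Ciart, an inhibitor of CLOCK:BMAL1, averaged 322 ± 46 under lithium and 496 ± 64 under vehicle (log2 difference -0.63 ± 0.060, adjusted p = 2.3e-13). Of 5 further activators and ROR factors, 1 was higher and 2 lower. Of the 2 PAR bZIP relatives of DBP, neither was called. Of 18 clock kinases, phosphatases and ligases, 6 were higher and 8 lower. Gsk3a, a kinase that lithium inhibits, differed by -0.18 ± 0.022, but turned to 0.05 (adjusted p = 0.048) after removal of the GC and length trend. The phosphatase subunit Ppp2ca differed by 0.15 ± 0.016. Of 6 other clock-controlled genes, 4 were higher and 1 lower, the P450 reductase Por at -0.39 ± 0.021. After removal of the trend, where 47.5% of all genes were called, 5 of the 6 further repressors were lower (median -0.29), 6 of the 18 kinases, phosphatases and ligases were higher and 6 lower, and Por stood at -0.14.

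Under fluoxetine over both genotypes (10.3% of all tested genes lower and 9.72% higher), Ciart (-0.30 ± 0.060), Por (-0.10 ± 0.021), Rorb (-0.20 ± 0.045) and Usp2 (-0.10 ± 0.027) were lower, and Wee1 (0.17 ± 0.041) was higher. Of the 6 further repressors, 3 were lower (median -0.17), and of 5 further activators and ROR factors, 1. Of the 2 PAR bZIP relatives 1 was higher, of the 18 kinases, phosphatases and ligases 2 were higher and 1 lower, and of the 6 other clock-controlled genes 2 were higher and 1 lower. Without the HT fluoxetine females, where 2.08% of all tested genes were called, 1 of these calls remained, Rorb at -0.21 (adjusted p = 0.018). Ciart then stood at -0.24 (adjusted p = 0.064), Wee1 at 0.15, Usp2 at -0.06 and Por at 0.01, and the median of the further repressors at -0.17. After removal of the GC and length trend, where 10.1% of all genes were called, Ciart (-0.31), Rorb (-0.21) and Wee1 (0.17) were called, and Por (-0.04) and Usp2 (-0.06) were not.

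Immediate early genes and glucocorticoid-induced genes moved with the same contrasts. Of 12 immediate early genes, 11 were lower under lithium (median -0.94), where 30.4% of all tested genes were lower, and 11 under fluoxetine (median -0.57), where 10.3% were. Without the HT fluoxetine females 8 were lower under fluoxetine (median -0.60, with 0.872% of all tested genes lower). Fos averaged 473 ± 161 under lithium and 663 ± 166 under fluoxetine, against 1110 ± 389 under vehicle (SD, n = 20, 20 and 19). Arc averaged 1706 ± 694 under lithium, 3276 ± 1424 under fluoxetine and 6065 ± 1920 under vehicle. Of 12 glucocorticoid-induced genes, 11 were higher and 1 lower under lithium, where 32.7% of all tested genes were higher. Under fluoxetine 9 were higher, where 9.72% of all tested genes were, and 9 also without those females, where 1.21% were. In WT mice alone 7 of the 12 immediate early genes were lower under fluoxetine, where 0.386% of all tested genes were, and 6 of the 12 glucocorticoid-induced genes were higher, where 0.632% were. Their part in the values of Per1 and Per2 was not tested. Cell type markers moved too: 4 of 4 endothelial genes were lower under lithium (median -0.48), with a summed level of 2743 to 4317 in lithium libraries and 3460 to 5297 in vehicle libraries. The 4 layer markers of cortex summed to 6783 to 8936 in lithium and 8518 to 10959 in vehicle libraries, and the 4 neuronal markers to 107630 to 145290 in lithium and 114880 to 143150 in vehicle libraries. Of the layer markers 3 of 4 were lower under lithium, and of the neuronal markers 1 was higher and 2 lower. Of 4 astrocyte markers 2 were lower, of 4 oligodendrocyte markers 1, of 4 striatal markers 1, and of 4 microglial markers 1 was higher and 2 lower. None of 5 olfactory bulb and rostral stream markers was called. Of 6 suprachiasmatic and hypothalamic markers, 2 were testable, summing to 1384 to 1975 in lithium and 1010 to 1563 in vehicle libraries. Most of that sum was Vip, at 1248 to 1975 in lithium and 936 to 1563 in vehicle libraries. The sum therefore describes mainly 1 gene and is no measure of suprachiasmatic or hypothalamic tissue. The part of these markers in the clock gene values was not tested.

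Within groups, mice varied together for some gene pairs. Residuals from the 12 group means were correlated over 59 libraries, and 12 of 45 pairs passed (permutation within groups with 100000 resamples, adjusted over 45 pairs, smallest p possible 1e-05). Of these, 8 were positive and 4 negative. How many pairs of other genes would pass was not tested, so the counts of pairs are only a description. Cry2 and Nr1d1 had Pearson r = 0.64 (adjusted p = 4.5e-04 by permutation) and Spearman rho = 0.58 (adjusted p = 0.0012), and r = 0.57 without the 2 libraries farthest from the median. It was 0.53 in lithium, 0.48 in fluoxetine and 0.78 in vehicle libraries. Per2 and Cry2 had r = 0.61 (adjusted p = 4.5e-04 by permutation), with rho = 0.53, and r = 0.53 without the 2 farthest. Within treatments it was 0.36 in lithium, 0.49 in fluoxetine and 0.87 in vehicle libraries. Nr1d1 and Arntl, a gene that REV-ERB represses, had r = 0.55 (adjusted p = 4.5e-04 by permutation) and rho = 0.57, and r = 0.50 without the 2 farthest. Within treatments it was 0.47 in lithium, 0.67 in fluoxetine and 0.63 in vehicle libraries. The negative pairs were Dbp with Clock (-0.47), Cry2 with Nr1d2 (-0.40), Cry1 with Arntl (-0.39) and Cry1 with Nr1d1 (-0.36). After removal of the GC and length trend, 18 pairs passed, 17 positive, and of the 4 negative pairs only Cry1 with Arntl kept a passing value (-0.39). The positive pair of Nr1d2 with Clock, at 0.43 before, then had r = 0.15 (adjusted p = 0.425 by permutation), and the other 7 positive pairs still passed.

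**Figure D5:**
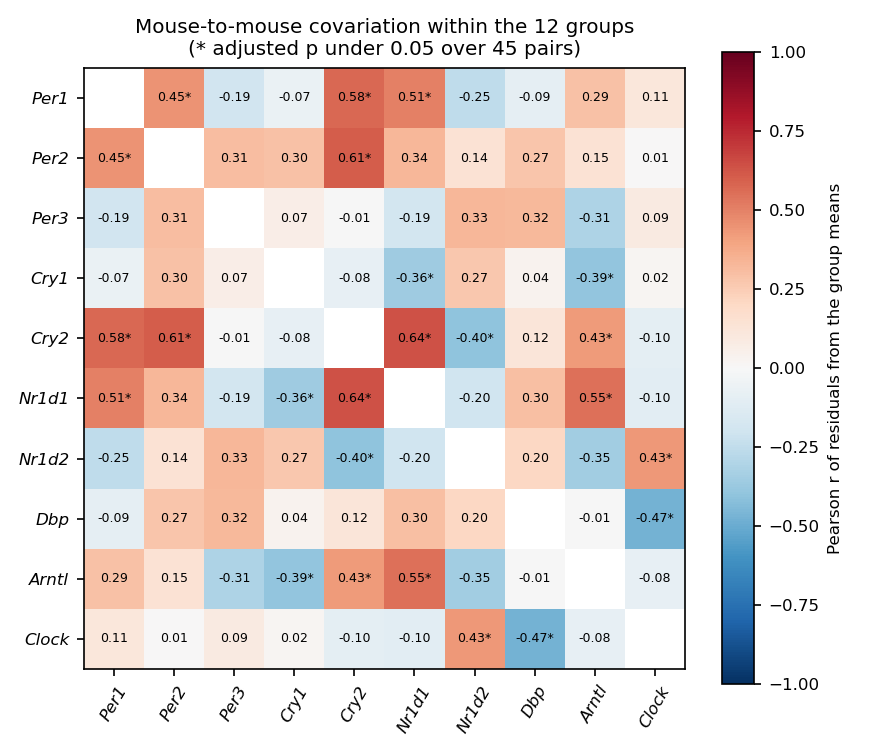
Pearson correlations of residuals from the 12 group means for each pair of the 10 core clock genes, over 59 libraries, with a star for an adjusted p below 0.05. The starred positive pairs link Per1, Per2, Cry2, Nr1d1 and Arntl, and Nr1d2 with Clock, a pair at 0.15 after removal of the GC and length trend, and the highest value is 0.64 for Cry2 with Nr1d1.

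The genes most alike to 3 members over 59 libraries, out of 12465 genes whose mean reached 100, are given as a description, since all share the library profile and the drug difference. With Arntl the highest Pearson r were Inka2 (0.72), Flot1 (0.69), Plpp1 (0.68), Lrfn5 (0.67) and Cap2 (0.67). With Per2 they were Spred2 (0.81), Fam53b (0.79), Hivep3 (0.79), Gfod1 (0.79) and Rnf165 (0.78). With Dbp they were Asic1 (0.85), Cactin (0.85), Bsg (0.84), Ccdc85c (0.83) and Epha8 (0.83).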

How the data were processed

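Whole prefrontal cortex RNA was sequenced from stranded mRNA libraries, per the labels' protocols. The deposited values are a signal per gene that the authors made with Salmon 0.11.2, DESeq2 1.19.11 and R 3.6.0 on GRCm38, per the submitters' processing notes. They are counts divided by a size factor per library: whole reads were recovered for 100% of values up to 1000 reads (tolerance 0.01 read), and 0 columns belonged to no sample.

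Genes reaching 10 in at least 4 libraries were kept (17891 of 18088), log2(value + 1) was taken, and limma 3.58.1 (R 4.3.3) fitted the 12 group means, with Benjamini-Hochberg adjustment over all genes and a threshold of 0.05. Fold changes are on that log2 scale. The labels name no litters, so p-values measure only the spread between these samples. Alternatives were the constant, no filter, quantile normalisation, only the compared groups, a replicate block, each library left out, count tests on the whole reads (DESeq2 1.42.0, edgeR 4.0.16), removal of a GC and length trend, and leaving out the HT fluoxetine females; the last 2 were applied to lists, limb medians and Naa15 after seeing the data. The tests were checked on simulated data for lithium vs vehicle, where limma made 178 calls, 9 of them false. With a GC trend added to the simulated lithium libraries limma made 5651 calls, 5468 of them false. Removal of the trend brought this back to 178 calls, 9 of them false. Figures and permutations used Python 3.11.15, numpy 2.4.6, scipy 1.17.1 and matplotlib 3.10.9.

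GENCODE M21 gave symbols for 18077 genes. The text names all 10 members in each comparison, up to 6 called further clock genes with the smallest p (1 of them is not reported here), the 5 genes most alike to Arntl, Per2 and Dbp, and up to 4 members of each list of immediate early, glucocorticoid-induced and marker genes. Members and lists were chosen with earlier results of these data known.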

Additional observations from a re-analysis of the deposited data

Results flagged for a closer look

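Of 120 sets of one gene in one group, 3 held a library far from the others, where chance gives about 1 in 20. Cry1 was at 531 in HT lithium male replicate 5, while the other 4 lay between 369 and 391. Nr1d2 was at 2631 in HT fluoxetine male replicate 4, against 2946 to 3067 in the others. Dbp was at 1669 in WT vehicle male replicate 4, against 2003 to 2125 in the others.

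The response to fluoxetine differed between HT and WT for 4 genes by the interaction term (limma): Cry2 (-0.18, adjusted p = 0.0024), Nr1d1 (-0.25, adjusted p = 0.0060), Nr1d2 (0.17, adjusted p = 0.016) and Clock (0.17, adjusted p = 0.039). It also differed between the sexes in HT for Cry2 (-0.25, adjusted p = 0.0039). That term includes the 5 HT fluoxetine females, so it has no value without them. Over both sexes of HT, the fluoxetine difference of Cry2 was -0.01 after removal of the GC and length trend. None of the 4 genotype terms was called without the 5 HT fluoxetine females, as for 0% of tested genes. These terms then rested on males alone, where Nr1d2 (0.17) and Clock (0.15) were about as large and Nr1d1 (-0.06) and Cry2 (0.03) were not. With the GC and length trend also removed, Nr1d2 stood at 0.12, Clock at 0.06, Nr1d1 at 0.03 and Cry2 at 0.09. None was called after removal of that trend from all 59 libraries (1.86% of all genes called), where the 4 ran from -0.09 for Nr1d1 to 0.04 for Clock. The reason these libraries stand apart was not tested.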

How the results depend on the processing

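The constants, no filter and the replicate block changed no call of the 10 genes. With the replicate block lithium vs vehicle over both genotypes still called 7, where 11286 of 17891 genes were called. The numbers appear not to pair libraries: residuals of libraries with the same number correlated at 0.0104 on average (lowest -0.316), others at -0.00257, and 18 of 59 correlated best with their own number. Quantile normalisation called 1 gene for HT vs WT over all treatments in place of 2, where 2435 of 17891 genes were called. For lithium vs fluoxetine it lost Arntl (adjusted p = 0.0583) and gained Nr1d2 (0.0096), where 9534 genes were called. Fitting only the compared groups called 1 in place of 0 for fluoxetine in WT, where 182 of 17891 genes were called.

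Without the 5 HT fluoxetine females the calls were 0 for HT vs WT under fluoxetine (5 with them, 1.40% of all tested genes called without them) and over all treatments (2, 2.96%). The same held for fluoxetine in HT (5, 0.145%), genotype by fluoxetine (4, 0%) and sex (2, 0.151%). Fluoxetine over both genotypes then had 1 (4, 2.08%), and the Cry2 interaction turned to 0.028. With the GC and length trend removed the calls were 6 for lithium over both genotypes (7 before), 5 for lithium in WT (7) and in HT (7), 7 against fluoxetine, 2 for HT vs WT under fluoxetine and for fluoxetine over both genotypes, 1 for HT vs WT over all treatments, for fluoxetine in WT and in HT, and 0 for genotype by fluoxetine and sex. Nr1d2 under lithium turned to -0.029 (both genotypes), -0.038 (WT) and -0.020 (HT), and to -0.081 against fluoxetine. Per3 turned to 0.11 against fluoxetine, Nr1d2 to -0.036 for HT vs WT fluoxetine females, and Dbp to 0.033 for fluoxetine in HT females. With both changes, added after seeing the data, the calls were 0 for HT vs WT under fluoxetine (185 of 17880 genes called) and over all treatments (642). Fluoxetine in HT (26), genotype by fluoxetine (0) and sex (39) had 0 too. Fluoxetine over both genotypes had 2 (440 genes called), and lithium in WT had 4 in place of 7 (6367 genes called). Nr1d2 under lithium was again -0.029, -0.038 and -0.020, and it was -0.075 against fluoxetine, Per3 was 0.13, Cry2 was 0.00052 for HT vs WT under fluoxetine, 0.0060 for fluoxetine in HT and 0.090 for the interaction, and Nr1d1 was 0.034 for the interaction. The cause was not tested.

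Leaving out 1 library gave 7 calls throughout for lithium over both genotypes and in WT, 6 to 7 in HT and against fluoxetine, 3 to 5 for HT vs WT under fluoxetine, 2 to 3 over all treatments, 4 to 5 for fluoxetine in HT, 4 over both genotypes, 3 to 4 for genotype by fluoxetine, 0 to 2 for sex, and 0 elsewhere. HT vehicle male replicate 3 decided the calls of Clock in HT, which were lost on leaving it out for lithium (limma adjusted p = 0.0754) and for fluoxetine (0.0947); the fluoxetine call was also lost without HT fluoxetine female replicate 2 (0.0523). The fewest calls for HT vs WT under fluoxetine came without WT fluoxetine female replicate 5, with Cry1 at 0.137 and Nr1d2 at 0.0554. Clock in genotype by fluoxetine was also lost on leaving out single libraries of HT or WT, fluoxetine or vehicle (highest adjusted p 0.0928). At this depth each member held at least 297 reads per library.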
